A study of Mus musculus with 40 samples.

Results

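The 9 genes that encode the subunits of protein kinase A (PKA) and its small inhibitor proteins were followed through brown adipose tissue (BAT) of 40 mice. They were taken by name from the 20295 genes counted: the catalytic subunits *Prkaca* and *Prkacb*, the type I regulatory subunits *Prkar1a* and *Prkar1b*, the type II regulatory subunits *Prkar2a* and *Prkar2b*, and the inhibitors *Pkia*, *Pkib* and *Pkig*. All 9 were found, and 8 had enough counts to be tested among 13277 genes. *Pkib* did not.

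PKA is the main effector of cAMP in adipocytes. In its resting form a dimer of regulatory subunits holds catalytic subunits inactive, and cAMP that binds the regulatory subunits frees the catalytic ones to phosphorylate proteins such as perilipin 1, hormone-sensitive lipase and the transcription factor CREB. The inhibitor proteins bind free catalytic subunits and carry them out of the nucleus, and type II regulatory subunits tether the kinase to anchoring proteins. In brown adipocytes this pathway connects Gs-coupled receptors to lipolysis and to transcription of *Ucp1*, the gene for the uncoupling protein that produces heat.

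RNA from whole BAT was sequenced in 8 groups of 5 male mice, all housed at 29 °C. In the first cohort, C-3BO mice carried a CAG-driven *Gpr3* transgene (*Gpr3* TTG) that *Ucp1*-Cre switches on constitutively in brown and beige adipocytes, so that this constitutively active Gs-coupled receptor is overexpressed from early life. Their control littermates had either the *Gpr3* TTG allele without Cre or Cre without that allele, and both genotypes were 13 to 19 weeks old and ate chow or a high-fat diet (HFD, 60 kcal% fat) for 7 days. In the second cohort, 15-week-old control littermates of another *Gpr3* line, which again had the *Gpr3* TTG allele or an inducible *Ucp1*-Cre but not both and are labelled wildtype, received the β3-adrenergic agonist CL-316,243 (CL) at 1 mg/kg or saline each day for 9 days. On HFD their injections began 2 days before the diet was changed. Tissue was taken the day after the last CL injection, a time the authors chose to assess chronic rather than acute effects. In whole tissue, fewer cells of a type and less RNA per cell cannot be told apart.

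The targeted gene, *Gpr3*, was at 375 ± 82.5 CPM (mean ± SD over 5 mice) in C-3BO mice fed chow and at 792 ± 95.8 CPM in those fed HFD. CPM are counts scaled to a common library size. In every other library *Gpr3* was at 1.18 CPM or less, except for chow CL replicate 3 at 9.15 CPM. The brown adipocyte markers were present in every group, with summed levels of 11962 to 32685 CPM over 8 genes, none of them at 0. Library totals ran from 849126 to 15260516 counts. The 12 smallest were all 10 HFD saline and HFD CL libraries and replicates 4 and 5 of HFD C-3BO, and in these 12 the 8 liver markers summed to 86.2 to 414 CPM against at most 4.17 CPM elsewhere. Diet and these library differences therefore cannot be told apart in the injected mice. CPM here use TMM factors, which allow for shifts in library composition. Scaling by library totals alone moved the median log2 fold change of all genes by -0.14 to -0.20 in the 4 treatment comparisons and by 0.15 to 0.18 in the 4 diet comparisons. This scaling also changed the share of passing genes that were higher from 49.8% to 59.9% down to 20.2% to 30.1% in the treatment comparisons and from 46.1% to 52.6% up to 71.3% to 84.7% in the diet comparisons.

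*Prkar2b* was the most abundant member. Levels of different genes are compared here in CPM per kb of counted exon. On that scale *Prkar2b* averaged 661 over the 40 libraries and ranked 94 among all genes. *Prkaca* followed at 215 and *Prkar1a* at 101 CPM per kb. *Prkacb* averaged 28.6, *Prkar2a* 9.82, *Pkig* 9.57, *Pkia* 4.73 and *Prkar1b* 1.13 CPM per kb. *Pkib* averaged 0.0700 CPM per kb, from 137 counts in all 40 libraries together and at most 19 in one. A single catalytic and a single regulatory transcript thus made up most of the kinase message in BAT.

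In mm9 coordinates, *Prkaca* (NM_008854) lies at chr8:86496877-86520341 on the plus strand and *Prkacb* (NM_011100) at chr3:146392543-146475910 on the minus strand. *Prkar1a* (NM_021880) lies at chr11:109512263-109530962 on the plus strand and *Prkar2b* (NM_011158) at chr12:32643344-32746144 on the minus strand. *Pkia* (NM_008862) lies at chr3:7366604-7445365 and *Pkig* (NM_001039390) at chr2:163484122-163551894, both on the plus strand. Reads were counted over all exons of each gene. Only *Prkar1b* (NM_001253890, chr5:139493258-139606340, minus strand) shared exon sequence with another annotated gene, 341 bases with the non-coding transcript *Gm15672* on the same strand, so its low count is uncertain to that extent. A pseudogene of *Prkaca* is annotated elsewhere in the genome, and reads common to both could not be told apart here.

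**Figure D1:**
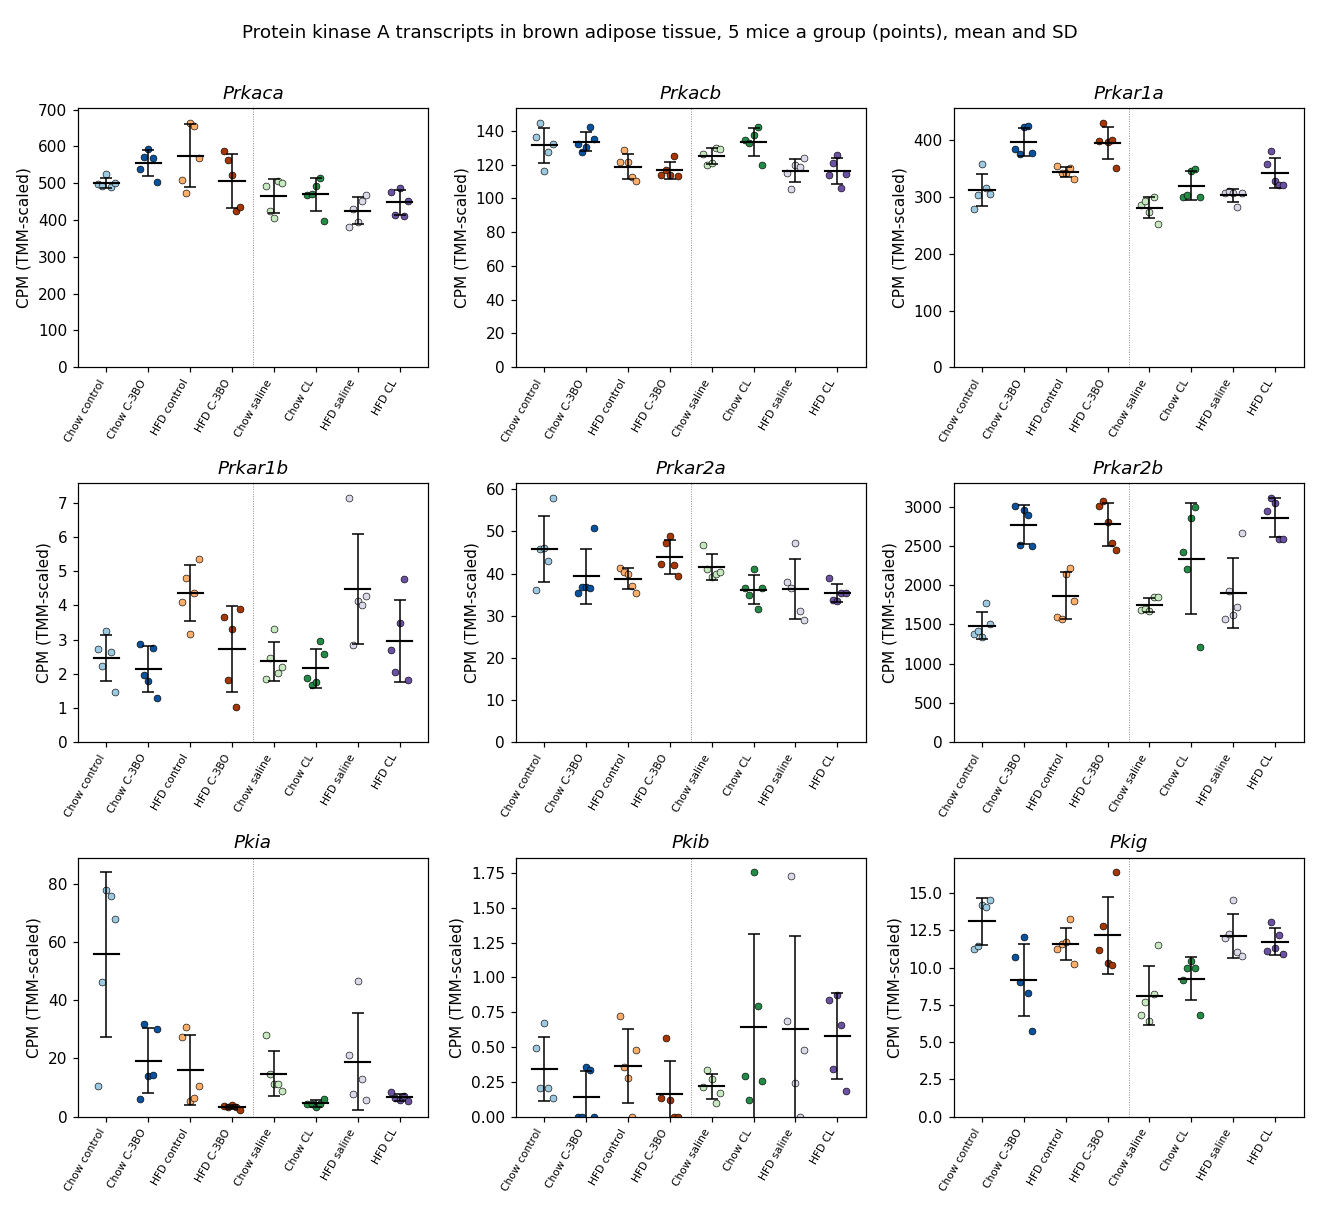
CPM (TMM-scaled, linear axes from 0) of the 9 genes in each mouse, with 5 points a group and the group mean and SD as bars, first cohort left of the dotted line. *Prkar2b* was higher in every C-3BO mouse than in any control mouse on the same diet, and *Pkia* differed 16.7-fold between its highest and lowest group means where *Prkacb* differed 1.15-fold.

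Promoter sequence is shown for the catalytic and regulatory genes other than *Prkar1b*, and not every match is printed. CREB binds the cAMP response element (CRE), and E-boxes are bound by other transcription factors. RefSeq windows from 250 bases before to 50 after a start (GRCm38.p6, a later build than the mm9 of the counts) were matched for 8 of the 9 genes. *Pkia* was not matched. Both strands were searched for the full CRE TGACGTCA, its core TGACG, which the full CRE contains, the nuclear receptor motif AGGTCA and the E-box CACGTG. The sequences are given along the gene's strand with the match in capitals, and a core on the other strand reads CGTCA.
Prkar1a, full CRE, chr11:109650889-109650918: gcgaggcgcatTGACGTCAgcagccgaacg
Prkaca, CRE core, chr8:83972846-83972875: gtctgcaactcgCGTCActcatccaggagc
Prkaca, CRE core, chr8:83972960-83972989: gggctgcgggggCGTCAcggacagaggact
Prkacb, CRE core, chr3:146813031-146813060: ggggcttgaccgCGTCActtccggcgcgcc
Prkar2a, CRE core, chr9:108692127-108692156: cgcggccgcgtgCGTCAcaacccgggcgcc
Prkar2b, E-box, chr12:32061340-32061369: gtttccggggatCACGTGggcgcgcgggcg

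Among the members the full CRE was found for *Prkar1a* alone, 49 bases before one of its starts and 38 bases after another. It lies in 1.79% of all 32851 windows and in a window of 2.03% of all genes. A gene with more windows has more chances of a match, and *Prkar1a* had 6. The CRE core was found in windows of *Prkaca*, *Prkacb*, *Prkar1a*, *Prkar1b*, *Prkar2a* and *Pkig*. It lies in 20.8% of all windows and in a window of 23% of all genes. The windows of *Prkar2b* held an E-box, 80 bases before the first start, and no match to the CRE or its core. E-boxes were also found in windows of *Prkaca*, *Prkar1a* and *Prkar1b*, and the nuclear receptor motif in windows of *Prkar1a* and *Prkar1b*. The E-box lies in 7.15% and the nuclear receptor motif in 16.3% of all windows, and by gene the shares are 8.09% and 18.1%. These matches describe letters only, and no binding was measured.

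*Prkaca*, the main catalytic subunit, did not pass the test in any comparison between treatments or diets. It was at 499, 492, 525, 490 and 501 CPM in the 5 chow control mice and at 540, 571, 593, 570 and 502 CPM in chow C-3BO mice, which overlapped. On HFD it was at 510, 473, 664, 656 and 569 CPM in control and 588, 563, 522, 424 and 434 CPM in C-3BO mice, with the low pair in the replicates that held liver transcripts. The log2 difference was 0.15 (95% interval -0.05 to 0.34) for C-3BO on chow and -0.18 (-0.38 to 0.01) on HFD. Without those 2 libraries the HFD value was -0.04. For CL the log2 difference was 0.01 (-0.18 to 0.21) on chow and 0.07 (-0.12 to 0.27) on HFD.

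*Prkacb*, the second catalytic subunit, ran from 105 to 145 CPM over all 40 mice, and its group means differed by at most 1.15-fold. The log2 differences by treatment were 0.09 (-0.04 to 0.22) for CL on chow, -0.00 (-0.14 to 0.13) for CL on HFD, 0.02 (-0.10 to 0.15) for C-3BO on chow and -0.03 (-0.16 to 0.10) on HFD. All 8 intervals for the catalytic transcripts ended within 0.4 of 0 on the log2 scale, under TMM scaling. With library totals *Prkaca* and *Prkacb* passed as lower for C-3BO on HFD, at -0.34 (adjusted p = 0.00256) and -0.20 (0.0168), where the median of all genes was -0.19. *Prkacb* passed as lower on chow too under that scaling, at -0.17 (adjusted p = 0.0466) against a median of -0.23. There the small positive values for CL on chow and C-3BO on chow, and of *Prkaca* for CL on HFD, turned negative.

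*Prkar2b*, the type II regulatory subunit typical of adipose tissue, was higher in C-3BO mice on both diets. On chow it was at 1381, 1411, 1346, 1769 and 1512 CPM in control mice and at 3009, 2509, 2965, 2892 and 2502 CPM in C-3BO mice. On HFD it was at 1600, 1576, 2148, 2226 and 1801 CPM in control mice and at 3018, 3076, 2805, 2538 and 2455 CPM in C-3BO mice. On each diet all 5 C-3BO mice lay above all 5 control mice. *Prkar2b* rose 1.87-fold on chow (log2 fold change 0.90 ± 0.15 SE, adjusted p = 2.02e-05, edgeR quasi-likelihood test with Benjamini-Hochberg adjustment) and 1.49-fold on HFD (0.57 ± 0.15, adjusted p = 0.00317). Leaving out HFD C-3BO replicates 4 and 5 gave 0.67 on HFD for *Prkar2b* (adjusted p = 0.00434). Of the 8 brown adipocyte markers, 5 were higher and 1 was lower for C-3BO on chow, where 31.6% of all genes passed. On HFD 2 were higher for C-3BO, where 34.8% passed. For CL 2 were higher and 1 lower on chow, where 15.3% passed, and 2 were higher on HFD, where 23.5% passed. The part of these markers in the *Prkar2b* results was not tested.

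After CL, *Prkar2b* was higher on HFD. Its levels were 1568, 1931, 1619, 1722 and 2664 CPM in HFD saline mice and 2947, 3121, 3052, 2597 and 2594 CPM in HFD CL mice. The single HFD saline mouse at 2664 CPM made the groups overlap. The rise was 1.51-fold (log2 fold change 0.59 ± 0.15, adjusted p = 0.00407). On chow the levels were 1683, 1703, 1678, 1854 and 1851 CPM with saline and 2423, 2205, 2865, 2997 and 1213 CPM with CL. In 4 of the 5 chow CL mice *Prkar2b* lay above every saline mouse, while replicate 5 lay below them all, and the log2 fold change of 0.42 ± 0.15 did not pass (adjusted p = 0.0556). That mouse had *Ucp1* at 1644 CPM, within the 1267 to 1865 CPM of the saline mice, where the other chow CL mice had 5943 to 8986 CPM. Without it the log2 fold change was 0.58 (adjusted p = 0.00118). DESeq2 on all mice gave 0.40 (adjusted p = 0.0437).

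The group means of *Prkar2b* ordered from chow control (1484 ± 171 CPM) through chow saline (1754 ± 90.7), HFD control (1870 ± 303), HFD saline (1901 ± 449), chow CL (2341 ± 708), chow C-3BO (2775 ± 250) and HFD C-3BO (2779 ± 278) to HFD CL (2862 ± 251). Every pair of neighbours in this order overlapped. By their means, the 4 groups with CL or the *Gpr3* transgene stood above the 4 groups without.

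*Prkar1a*, the ubiquitous type I regulatory subunit, was higher in C-3BO mice by a smaller margin. On chow it was at 279, 303, 358, 316 and 305 CPM in control mice and 385, 375, 423, 425 and 377 CPM in C-3BO mice, with no overlap. It rose 1.27-fold (log2 fold change 0.35 ± 0.07, adjusted p = 0.000308). On HFD it was at 355, 343, 342, 351 and 331 CPM in control mice and 399, 431, 398, 400 and 351 CPM in C-3BO mice, where the lowest C-3BO mouse overlapped the controls. The HFD rise was 0.20 ± 0.07 (adjusted p = 0.0276). Under scaling by library totals neither passed, at 0.15 on chow (adjusted p = 0.127) and 0.03 on HFD (0.784), against all-gene medians of -0.23 and -0.19 under that scaling. The HFD call was also lost without HFD control replicate 2 (0.0542) or HFD C-3BO replicate 2 (0.0758), without a filter on low counts (0.0903) or when only these libraries were fitted (0.0834), and was 0.25 (0.0222) without HFD C-3BO replicates 4 and 5. After CL, *Prkar1a* differed by 0.18 ± 0.07 on chow (adjusted p = 0.0759) and 0.17 ± 0.07 on HFD (adjusted p = 0.0760), and neither passed. On HFD the CL mice, at 322 to 382 CPM, did not overlap the saline mice at 282 to 310 CPM.

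The other regulatory subunits did not pass in a treatment comparison under TMM scaling. With library totals *Prkar2a* passed as lower for CL on chow (-0.34, adjusted p = 0.0409) and C-3BO on chow (-0.41, adjusted p = 0.00646), and *Prkar1b* as lower for C-3BO on HFD (-0.82, adjusted p = 0.0274). *Prkar2a*, the widely expressed type II form, ran from 29.1 to 58.0 CPM over all mice, with log2 differences of -0.22 and 0.18 for C-3BO on chow and HFD and -0.20 and -0.06 for CL. *Prkar1b*, the neuronal type I form, ran from 1.02 to 7.16 CPM. Its lowest library held 4 counts, and its log2 differences were all below 0, from -0.12 for CL on chow to -0.66 for C-3BO on HFD (adjusted p = 0.0757). There the 7 nerve and Schwann cell markers summed to 340 to 544 CPM in C-3BO mice and 144 to 309 CPM in control mice. Only 1 of the 4 that could be tested passed as higher, and the median log2 fold change of the 4 was 0.19. The part of these markers was not tested.

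Of the 8 tested members, 2 were higher and 2 lower for C-3BO on chow, where 31.6% of all tested genes passed (15.8% higher, 15.9% lower). For C-3BO on HFD 2 were higher and 1 lower, where 34.8% passed (19.3% higher, 15.5% lower). For CL on chow 1 was lower and none higher, where 15.3% passed (9.16% higher, 6.13% lower), and DESeq2 called 1 in each direction there. For CL on HFD 1 was higher and 1 lower, where 23.5% passed (12.7% higher, 10.8% lower). The median log2 fold change of the 8 was 0.05 and -0.03 for CL on chow and HFD and -0.09 and 0.01 for C-3BO, beside -0.01, -0.01, -0.03 and -0.02 over all genes. With so few members, these counts do not set the group apart from the whole table. Among markers of other cells, 2 of 4 endothelial genes were lower for C-3BO on chow and 3 of 4 on HFD, and 3 of 4 fibroblast and 2 of 5 macrophage genes were lower for CL on HFD. Their part in the members' results was not tested.

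**Figure D2:**
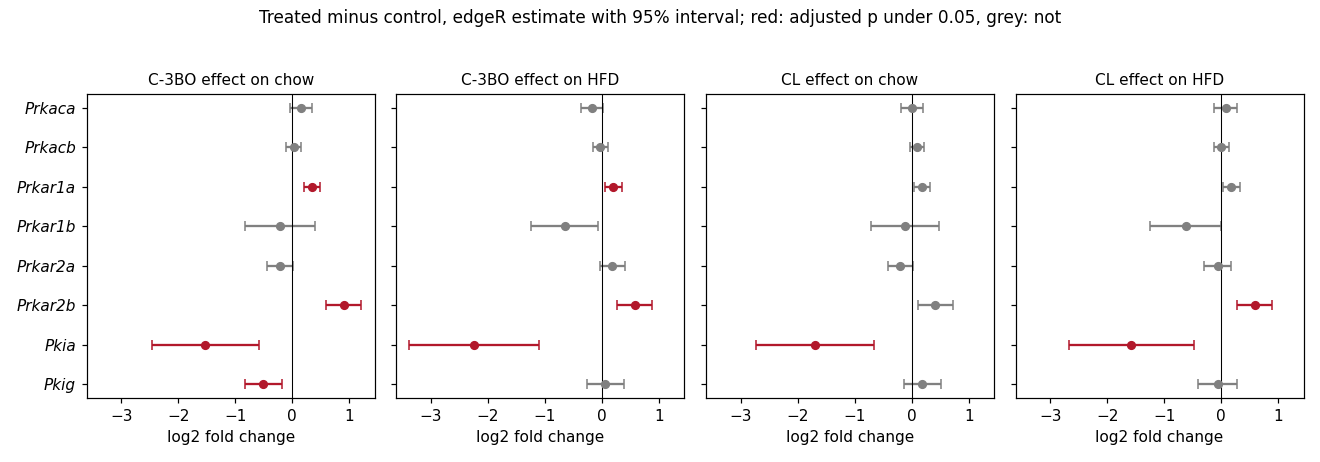
Log2 fold change of each tested member (edgeR estimate as a point, 95% interval as a bar) for C-3BO against control and CL against saline on each diet, in red where the adjusted p was under 0.05. *Prkar2b* lay to the right and *Pkia* to the left of 0 in all 4 panels, while the intervals of *Prkaca* and *Prkacb* included 0.

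Differences between these effects were tested in the same fit. None of the 32 tests (4 contrasts of 8 members) passed in edgeR. At an unadjusted p under 0.05 stood 3 members when the C-3BO effect was compared between diets, 2 when it was compared with the CL effect on chow, and none in the other comparisons. DESeq2 called 1. Over all genes 2.09%, 0.0151%, 6.24% and 1.80% passed, for C-3BO by diet, CL by diet and C-3BO against CL on chow and on HFD. For *Prkar2b* the C-3BO effect differed between HFD and chow by -0.33 (95% interval -0.76 to 0.10). Its difference from the CL effect was 0.49 on chow (0.05 to 0.92, adjusted p = 0.179) and -0.02 on HFD (-0.45 to 0.41). The value called by DESeq2 was *Pkig* on chow, whose C-3BO effect minus its CL effect was -0.69 ± 0.23 (adjusted p = 0.0559 in edgeR and 0.0415 in DESeq2). In edgeR this difference also passed without chow C-3BO replicate 3 (adjusted p = 0.0297), chow saline replicate 5 (0.0149) or chow CL replicate 5 (0.0340). C-3BO and CL were studied in different cohorts.

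The make-up of the kinase transcripts was described in each mouse from CPM per kb. Ratios within a mouse do not depend on library scaling. *Prkaca* supplied 86.9% to 90.0% of catalytic transcript in the group means, and *Prkar2b* supplied 80.5% to 88.3% of regulatory transcript. The ratio of regulatory to catalytic transcript was 2.20 ± 0.24 (SD, n = 5) in chow control and 3.50 ± 0.26 in chow C-3BO mice. On HFD it was 2.41 ± 0.064 in control and 3.88 ± 0.18 in C-3BO mice. Every C-3BO mouse, at 3.12 to 4.14, lay above every control mouse of the cohort, at 2.03 to 2.61. In HFD C-3BO mice without replicates 4 and 5 the mean was 3.77.

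In injected mice the ratio was 2.67 ± 0.19 with saline and 3.36 ± 0.67 with CL on chow. The chow CL mice had ratios of 3.49, 3.20, 3.91, 3.90 and 2.29, and the last, the mouse with low *Ucp1*, was the only one that did not lie above the saline range of 2.46 to 2.90. On HFD the ratio was 3.13 ± 0.44 with saline and 4.35 ± 0.42 with CL. These HFD groups did not overlap, at 2.70 to 3.85 and 3.93 to 5.06. With *Prkar2b* left out of the sum, the ratio lay between 0.416 and 0.533 in all 8 group means, so most of the spread between groups lay in *Prkar2b*. These ratios are of transcripts and say nothing of protein.

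**Figure D3:**
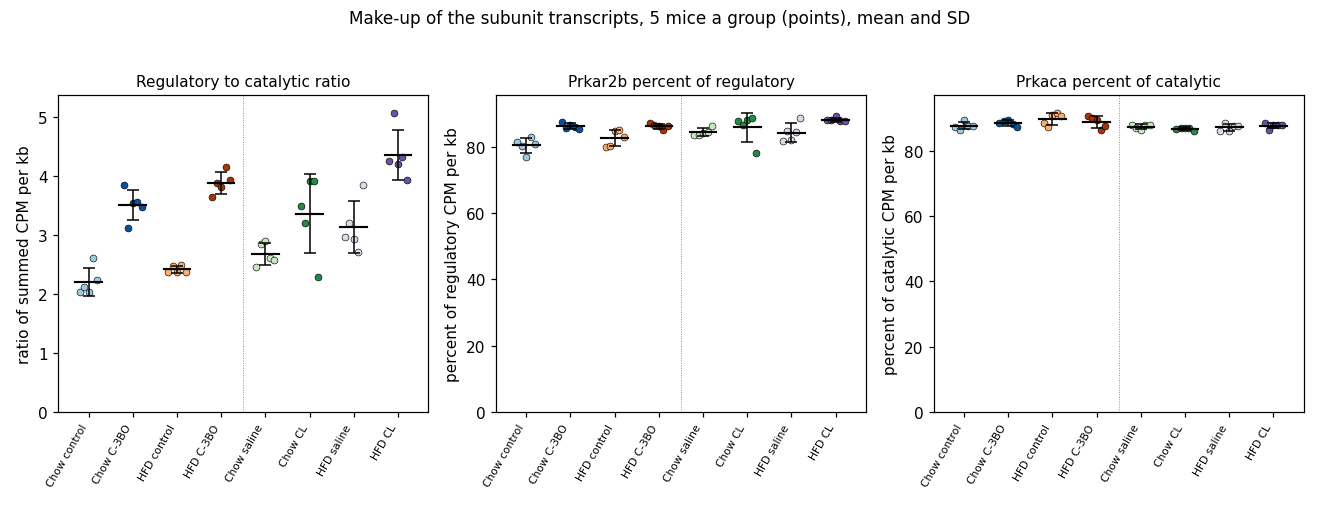
Ratio of summed regulatory to summed catalytic CPM per kb, *Prkar2b* as a percent of regulatory CPM per kb and *Prkaca* as a percent of catalytic CPM per kb, with a point for each mouse and mean and SD as bars (axes from 0). The ratio was 3.12 to 4.14 in C-3BO mice and 2.03 to 2.61 in their controls, while *Prkaca* stayed near 87% to 90%.

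Among the inhibitors, *Pkia*, which encodes the form abundant in muscle and heart, passed as lower in all 4 treatment comparisons, and in some libraries its level went with that of skeletal muscle transcripts. On chow it was at 10.6, 46.1, 77.9, 75.9 and 68.0 CPM in control mice and at 6.18, 31.9, 13.9, 14.2 and 30.1 CPM in C-3BO mice. The lowest control mouse lay within the C-3BO range. *Pkia* was 0.35-fold the control level (log2 fold change -1.53 ± 0.46, adjusted p = 0.0104). The 10 skeletal muscle markers summed to 912, 5292, 10722, 10184 and 8214 CPM in the same control mice, so the lowest *Pkia* fell in the mouse with the least muscle transcript. In the chow C-3BO mice they summed to 458, 4402, 1676, 1543 and 4112 CPM. None of the 10 markers passed for C-3BO on chow in edgeR (3 at an unadjusted p under 0.05, none by DESeq2), but their median log2 fold change was -1.63. With the sum of the markers as a covariate, chosen after the data were seen, *Pkia* still passed.

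On HFD, *Pkia* was at 27.2, 30.8, 5.43, 6.58 and 10.4 CPM in control mice and at 3.54, 3.39, 4.04, 3.46 and 2.25 CPM in C-3BO mice, with all C-3BO mice lower. It fell by 2.24 ± 0.56 on the log2 scale (adjusted p = 0.00190), and by 2.13 when the C-3BO libraries with liver transcripts, replicates 4 and 5, were left out (adjusted p = 0.0174). Muscle markers were low in both groups, at 5.97 to 261 CPM in control and 7.00 to 86.6 CPM in C-3BO mice, and the control mice with the most *Pkia* held 5.97 and 12.9 CPM of them. None of the 10 markers passed here in edgeR or DESeq2, and none had an unadjusted p under 0.05. Their median log2 fold change was -0.89.

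With CL on chow, *Pkia* was at 4.23, 4.51, 3.33, 4.40 and 6.22 CPM against 28.2, 14.7, 11.2, 11.4 and 8.67 CPM with saline. All CL mice were lower (log2 fold change -1.69 ± 0.51, adjusted p = 0.0208). The muscle markers fell alongside, 9 of 10 passing, with sums of 14.2 to 162 CPM after CL and 12.96 to 2909 CPM after saline, and with the muscle sum as a covariate *Pkia* was at -1.33 (adjusted p = 0.0784). The call was also lost without chow saline replicate 1 (-1.34, adjusted p = 0.0871) or chow CL replicate 3 (-1.60, adjusted p = 0.0501).

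With CL on HFD, *Pkia* was at 8.58, 6.28, 5.82, 7.10 and 5.27 CPM against 21.2, 7.71, 46.7, 13.03 and 5.87 CPM with saline, and the groups overlapped. The log2 fold change was -1.58 ± 0.54 (adjusted p = 0.0313). It rested on HFD saline replicate 3, which had 46.7 CPM of *Pkia* and the highest muscle sum of its group, 2390 CPM: without it the value was -0.83 (adjusted p = 0.323). None of the 10 muscle markers passed in edgeR or DESeq2 (1 at an unadjusted p under 0.05), and their median log2 fold change was -1.06. The call was lost too without HFD saline replicate 1 and without HFD CL replicates 2, 3, 4 or 5, at adjusted p from 0.0521 to 0.0617.

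**Figure D4:**
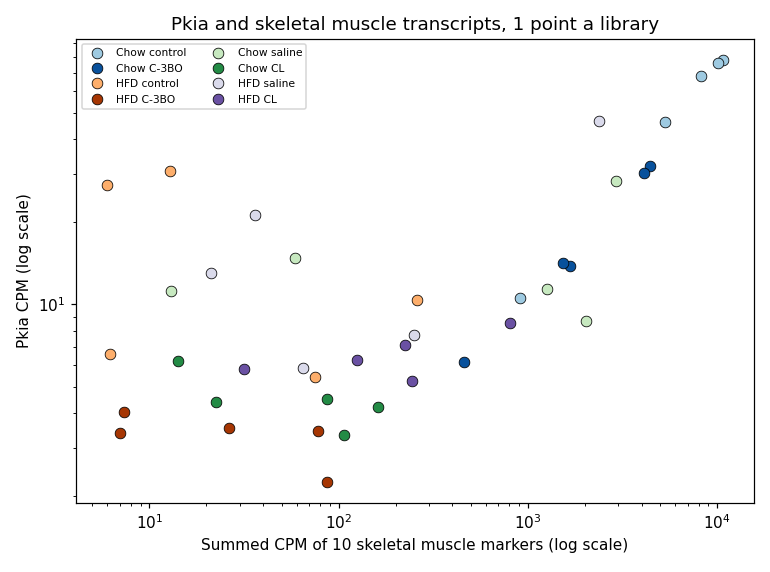
*Pkia* CPM against the summed CPM of 10 skeletal muscle markers in each of the 40 libraries (both axes logarithmic, 1 point a library, coloured by group). The chow control and chow C-3BO points, with muscle sums of 458 to 10722 CPM, run from low left to high right, while HFD control replicates 1 and 2 have *Pkia* at 27.2 and 30.8 CPM with muscle sums of 5.97 and 12.9 CPM.

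*Pkig*, the broadly expressed inhibitor, was lower in C-3BO mice on chow. It was at 11.2, 11.4, 14.2, 14.0 and 14.5 CPM in control mice and at 10.7, 9.03, 12.1, 8.30 and 5.73 CPM in C-3BO mice, where 1 C-3BO mouse lay within the control range. It fell by 0.51 ± 0.16 on the log2 scale (adjusted p = 0.0129). The call was lost without chow C-3BO replicate 5 (-0.38, adjusted p = 0.0598) or when only the compared libraries were fitted (-0.50, adjusted p = 0.0529). On HFD the difference was 0.06 (95% interval -0.26 to 0.38). For CL it was 0.18 (-0.14 to 0.51) on chow and -0.07 (-0.41 to 0.27) on HFD.

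*Pkib* was close to absent from the counts, with group sums of 6 to 37 counts, and was not tested. In 7 of 40 libraries it had no count, where 3 counts would be 0.222 to 3.01 CPM depending on the library. This covers counting error only. Its highest library, chow CL replicate 3 with 19 counts, was the one with *Gpr3* at 9.15 CPM.

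The diet comparisons set HFD against chow within each treatment. In control mice 2 of 8 passed (1 higher, 1 lower), where 32.9% of all genes did (15.4% higher, 17.5% lower). *Pkia* fell by 1.79 ± 0.46 on the log2 scale (adjusted p = 0.00252) and *Prkar1b* rose by 0.80 ± 0.28 (adjusted p = 0.0255), from 2.73, 2.23, 3.25, 2.64 and 1.46 CPM to 4.10, 4.80, 3.16, 4.36 and 5.36 CPM. All 10 muscle markers were lower on HFD there. With their sum as a covariate *Pkia* was at -0.71 (adjusted p = 0.548) and *Prkar1b* at 0.27 (adjusted p = 0.687). The muscle sums did not overlap, at 912 to 10722 CPM in chow and 5.97 to 261 CPM in HFD control mice. Diet and muscle transcript therefore cannot be told apart by this covariate. The 7 nerve and Schwann cell markers summed to 89.7 to 162 CPM in chow and 144 to 309 CPM in HFD control mice. Of the 4 tested, 1 passed as higher, and their median log2 fold change was -0.14. The part of these markers was not tested. The *Prkar1b* call was also lost without chow control replicate 2 (adjusted p = 0.0518) or 5 (0.0759) or HFD control replicate 5 (0.0671). *Prkacb* was at -0.14 (adjusted p = 0.0777) and passed as lower with DESeq2 (-0.16, adjusted p = 0.0324), with RLE factors (-0.16, 0.0499), with at least 10 counts in every library (-0.18, 0.0204) and without chow control replicate 3 (-0.18, 0.0277), while with library totals it was at 0.01 (0.887).

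In C-3BO mice 2 of 8 were lower on HFD, where 25.7% of all genes passed (13.5% higher, 12.2% lower). *Pkia* fell by 2.50 ± 0.57 (adjusted p = 0.00112), again with all 10 muscle markers lower and at -1.67 with the covariate (adjusted p = 0.0981). Here too the muscle sums did not overlap, at 458 to 4402 CPM on chow and 7.00 to 86.6 CPM on HFD, with the same limit. *Prkacb* fell by 0.20 ± 0.06 (adjusted p = 0.0208), and all 5 HFD mice, at 113 to 125 CPM, lay below the chow mice at 128 to 142 CPM. With library totals *Prkacb* was at -0.02 (adjusted p = 0.852) against an all-gene median of 0.21, and it did not pass without chow C-3BO replicate 4 (-0.17, adjusted p = 0.0589). Over all 19 alternatives this *Prkacb* call was lost in 3. Without HFD C-3BO replicates 4 and 5 *Pkia* was at -2.40 (adjusted p = 0.0120) and *Prkacb* at -0.22 (adjusted p = 0.0403). The diet difference of *Prkar2b* in C-3BO mice was 0.00 (95% interval -0.30 to 0.31), and in control mice it was 0.33 higher on HFD without passing (adjusted p = 0.0880). With library totals *Prkar2b* passed as higher on HFD in control mice (0.48, adjusted p = 0.00760) and in CL mice (0.47, adjusted p = 0.0131), against all-gene medians of 0.15 and 0.16.

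In saline mice 2 of 8 were higher on HFD, where 15.5% of all genes passed (7.45% higher, 8.04% lower), with *Pkig* at 0.59 ± 0.17 (adjusted p = 0.0123) and *Prkar1b* at 0.94 ± 0.30 (adjusted p = 0.0275). *Pkig* was at 6.81, 7.69, 6.44, 8.22 and 11.5 CPM on chow and 11.98, 12.3, 14.6, 11.03 and 10.8 CPM on HFD, so that 1 chow mouse lay among the HFD mice. The call was lost without HFD saline replicate 3 (0.51, adjusted p = 0.0525). All 5 macrophage markers were higher in the same comparison, with sums of 143 to 321 CPM on HFD and 61.0 to 125 CPM on chow, and their part was not tested. The 7 nerve and Schwann cell markers summed to 132 to 245 CPM on HFD and 108 to 122 CPM on chow in saline mice. Of the 4 tested, 1 passed as higher, and their median log2 fold change was 0.18. The part of these markers was not tested either. In CL mice 1 of 8 was lower, where 23.6% passed (10.9% higher, 12.7% lower), namely *Prkacb* at -0.20 ± 0.06 (adjusted p = 0.0211). Every HFD library of these mice held liver transcripts and had a small total, so diet and library cannot be told apart. The *Prkar1b* call was lost without HFD saline replicate 1 (0.68, adjusted p = 0.163) or without chow saline replicate 1 (0.0669), 4 (0.0648) or 5 (0.0519). The *Prkacb* call was lost without chow CL replicate 4 (-0.18, adjusted p = 0.0609) or HFD CL replicate 4 (-0.17, 0.0721), and with library totals the value was -0.03 (0.796). All 4 endothelial markers were higher on HFD in control, C-3BO and CL mice, with median log2 fold changes of 0.79, 0.71 and 0.74. In saline mice 2 of the 4 were higher, with a median of 0.42. The part of the endothelial markers in the diet results was not tested.

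**Figure D5:**
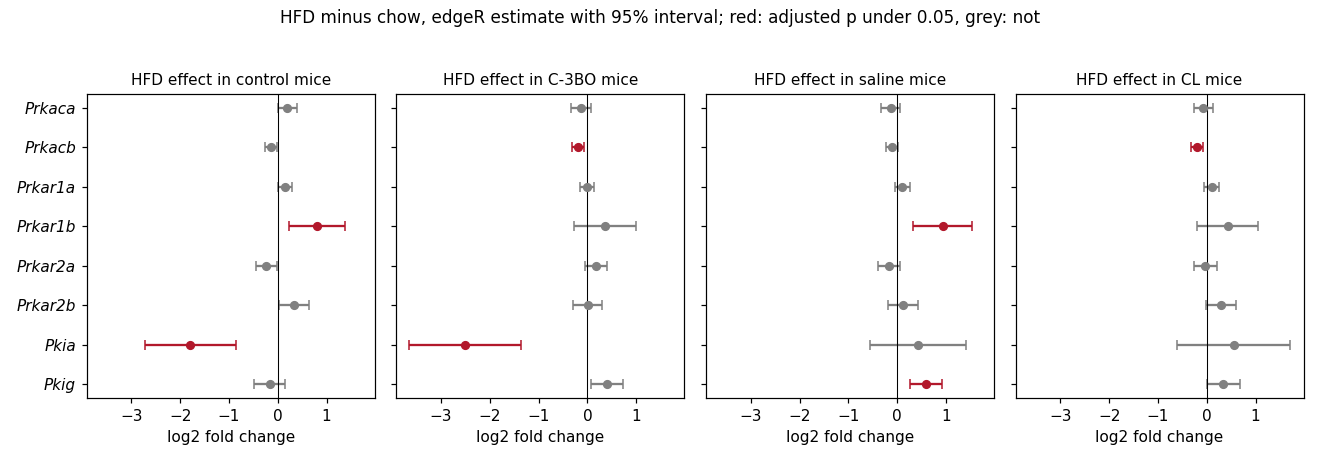
Log2 fold change of each tested member on HFD against chow (edgeR estimate as a point, 95% interval as a bar) in control, C-3BO, saline and CL mice, in red where the adjusted p was under 0.05. *Pkia* was at -1.79 and -2.50 in the first cohort and at 0.43 and 0.55 with intervals that include 0 in the injected mice, and no catalytic or *Prkar2b* estimate passed 0.4 in size.

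Other genes of the pathway were counted as lists. Of 17 A-kinase anchoring proteins, which hold PKA at membranes and organelles, 13 were tested, and *Akap3*, *Akap4*, *Akap14* and *Sphkap* were too low. For CL 4 were higher on chow, and on HFD 4 were higher and 1 lower. For C-3BO 6 were higher and 1 lower on chow, and 3 were higher and 2 lower on HFD. By diet, 4 were higher and 3 lower on HFD in control mice, 3 and 5 in C-3BO mice, 1 and 2 in saline mice and 0 and 1 in CL mice. Over all genes 15.3% and 23.5% passed for CL on chow and HFD, and 31.6% and 34.8% for C-3BO. For HFD against chow 32.9% passed in control, 25.7% in C-3BO, 15.5% in saline and 23.6% in CL mice. *Akap7*, which anchors PKA near membrane channels, was higher in all 4 comparisons, by log2 fold changes of 0.67 and 0.44 with CL and 0.29 and 0.39 with C-3BO on chow and HFD, each time without overlap between groups. *Opa1*, the mitochondrial fusion protein that also anchors PKA at lipid droplets, was higher in all 4 by 0.26 to 0.38.

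*Akap5*, a plasma membrane anchor, went opposite ways. With CL it was higher by 1.08 ± 0.22 on chow (adjusted p = 0.000693) and 0.88 ± 0.24 on HFD (adjusted p = 0.00607). In C-3BO mice it was lower, with log2 fold changes of -0.62 ± 0.22 on chow (adjusted p = 0.0305) and -0.61 ± 0.22 on HFD (adjusted p = 0.0307). The difference between the C-3BO and CL effects was -1.71 ± 0.32 on chow (adjusted p = 0.000674) and -1.49 ± 0.33 on HFD (adjusted p = 0.0102). The baselines were unlike, with *Akap5* means of 12.9 and 14.3 CPM in chow and HFD saline mice against 22.1 and 23.4 CPM in chow and HFD control mice.

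Among 12 substrates and nuclear effectors, for CL 2 were lower on chow and 1 on HFD. For C-3BO 3 were higher and 1 lower on chow, and 1 was lower on HFD. Over all genes 9.16% were higher and 6.13% lower for CL on chow, and 12.7% and 10.8% on HFD. For C-3BO these shares were 15.8% and 15.9% on chow and 19.3% and 15.5% on HFD. *Sik1*, a salt-inducible kinase that PKA phosphorylates and that is itself a CREB target, was lower with CL on chow (-1.13 ± 0.36, adjusted p = 0.0273) and higher in C-3BO mice on chow (2.09 ± 0.37, adjusted p = 4.84e-05). The difference was 3.22 ± 0.52 (adjusted p = 0.000141). Because tissue was taken the day after the last CL injection, the acute response of *Sik1* to CL was not measured. The *Sik1* baselines were unlike too, with means of 76.9 CPM in chow saline and 34.9 CPM in chow CL mice against 19.4 CPM in chow control and 83.0 CPM in chow C-3BO mice. On HFD *Sik1* did not pass, at -0.03 for CL (adjusted p = 0.9749) and 0.80 for C-3BO (adjusted p = 0.0809). *Sik2*, its relative in adipocytes, was higher in chow C-3BO mice (0.80 ± 0.16, adjusted p = 0.000134). It did not pass for C-3BO on HFD (0.18, adjusted p = 0.397) or for CL on chow (-0.22, 0.364) or HFD (0.05, 0.865). The *Sik2* means were 183 CPM in chow control, 319 CPM in chow C-3BO and 331 CPM in chow saline mice. *Crtc3*, a CREB coactivator, was lower in C-3BO mice on HFD (-0.66 ± 0.11, adjusted p = 1.61e-05) and on chow (-0.30 ± 0.11, adjusted p = 0.0350). With CL its values were near the chow C-3BO value without passing, at -0.31 ± 0.11 on chow (adjusted p = 0.05004) and -0.30 ± 0.12 on HFD (0.0624).

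Of the 5 other cAMP receptors, *Rapgef4*, an exchange factor that cAMP activates without PKA, was higher in C-3BO mice on HFD (1.01 ± 0.25, adjusted p = 0.00160). It was the only one of them to pass in a treatment comparison in edgeR or DESeq2, while 3 were lower and 1 higher at an unadjusted p under 0.05 for C-3BO on chow and 1 was lower for CL on HFD. Of the 4 tested regulators of PKA, 2 were higher and 1 lower for C-3BO on HFD, where 34.8% of all genes passed. None passed in the other treatment comparisons in edgeR or DESeq2 (1 lower at an unadjusted p under 0.05 for CL on chow). Of the 3 thermogenic targets tested, *Ucp1*, *Dio2* and *Ppargc1a*, the last passed in none of the 4 treatment comparisons. *Ucp1* was higher in all 4 treatment comparisons, by 1.90 ± 0.27 and 1.74 ± 0.27 with CL on chow and HFD and by 2.38 ± 0.28 and 1.52 ± 0.27 with C-3BO. *Dio2*, the deiodinase that activates thyroid hormone, passed in 3 of them, with 2.22 ± 0.47 for CL on HFD and 1.57 ± 0.44 and 2.65 ± 0.45 for C-3BO on chow and HFD, and it was at 0.75 ± 0.43 for CL on chow (adjusted p = 0.256).

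The genes most like 3 members over the 40 libraries were named by the root mean square difference of centred log2 CPM. For *Prkar2b* they were *Cluh*, *Crat* and *Nadk*, each at 0.19, where *Prkar2b* itself varied by 0.41 around its mean. For *Prkar1a* they were *Pigk* at 0.12 and *Acp2* and *Tspyl1* at 0.13, beside its own 0.19. For *Pkia* the nearest, *Kcnj2*, *Tpm1* and *Ankrd23*, stood at 0.60 to 0.69 beside its own 1.33. This is a description of the same libraries, in which treatment, diet and depth are shared.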

How the data were processed

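The authors isolated RNA from BAT, prepared TruSeq libraries, aligned reads with STAR to mm9, processed the alignments with HOMER and summed reads over RefSeq exons with iRNA-seq. They deposited raw counts per gene and mouse, without normalization, and the exon length counted. Versions and strandedness are not given in the sources used here. Groups came from the labels. The members and gene lists were chosen with earlier results of these data known.

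Genes were filtered with filterByExpr (minimum count 10) and fitted with edgeR 4.0.16 (R 4.3.3) by quasi-likelihood, with TMM factors and 1 mean for each of the 8 groups over 40 libraries. P-values were adjusted over 13277 genes by Benjamini-Hochberg, and passing meant an adjusted p under 0.05. CPM are counts over the product of library total and TMM factor. Standard errors come from the F statistic. The fit was tested on simulated counts. DESeq2 1.42.0, other scalings, filters, sample sets, a replicate block and leaving out each replicate were alternatives, and a muscle marker covariate was added after the data were seen. All members were named. Of the other lists, genes were named that passed with a log2 fold change over 1 in size in a treatment comparison, or that had one of the 3 lowest p-values in one. *Opa1* and *Ppargc1a* were named after their values were seen. Genes like a member were the 3 with the smallest root mean square difference of log2 CPM (prior count 2), for members that passed in at least 2 treatment comparisons. P-values measure the spread between the samples that the labels list as replicates.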

Additional observations from a re-analysis of the deposited data

Results flagged for a closer look

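In 4 of 72 checks of a member within a group of 5 mice, 1 mouse lay far from the other 4 relative to the whole range of the group. Chance alone gives about 1 in 20. *Prkar1a* was at 281.7 CPM in HFD saline replicate 4, where the other mice had 307.3 to 310.3 CPM. That library had the smallest total, 849126 counts. *Prkar2a* was at 50.8 CPM in chow C-3BO replicate 5, where the others had 35.4 to 36.9 CPM, and at 46.8 CPM in chow saline replicate 1, where the others had 39.1 to 41.1 CPM. *Pkib* was at 0.564 CPM in HFD C-3BO replicate 2, from 5 counts, where the others had at most 0.136 CPM.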

How the results depend on the processing

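Over 70 member values, 1241 alternative values kept direction and call, 67 turned in direction, 37 lost and 37 gained a call. The cause was not tested. *Prkar2b* kept its calls for C-3BO on both diets and CL on HFD, and *Pkia* for C-3BO on both, under every alternative run. The number of members passing changed with library totals from 1 to 2 (CL on chow), 3 to 5 (C-3BO on HFD), 2 to 5 (HFD in controls), 1 to 3 (HFD in CL mice) and 0 to 1 (differences between effects). With the muscle covariate, chosen after seeing the data, it was 0 for CL on chow, 0 and 1 for HFD in control and C-3BO mice and 1 for differences. DESeq2 gave 2 for CL on chow and 1 for differences, at least 10 counts in all libraries gave 1 for HFD in saline mice and 1 for differences, and only the compared libraries gave 1 and 0 for HFD in saline and CL mice. The labels do not say whether replicate numbers pair the mice. Same-number correlations ran from -0.38 to 0.44. At most 3 of 5 mice were nearest their own number, as in the C-3BO comparison on each diet. The replicate block moved CL on HFD from 2 to 1 (*Pkia* -1.38, adjusted p = 0.0844) and changed no other call. Leaving out 1 replicate gave 0 to 2 for CL on chow, 1 to 2 for CL on HFD, 1 to 4, 1 to 3, 1 to 2 and 0 to 1 for HFD in control, C-3BO, saline and CL mice, and 0 to 1 for differences. Calls appeared without HFD CL replicate 4 (*Prkar1b*, CL on HFD, -0.89), chow control replicate 1 or chow C-3BO replicate 5 (*Prkar2a*, C-3BO on chow, -0.29 and -0.33), HFD C-3BO replicate 5 (*Prkar1b*, C-3BO on HFD, -0.79), HFD control replicate 2 (*Prkaca*, 0.26), chow control replicate 3 (*Prkacb* -0.18, *Prkar1a* 0.19) and chow control replicate 1 (*Prkar2a* -0.31) for HFD in controls, and chow C-3BO replicate 3 (*Pkig*, HFD in C-3BO mice, 0.49).

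Values that turned with library totals were *Prkaca* and *Prkacb* for CL on chow (-0.13, -0.050) and C-3BO on chow (-0.050, -0.17), *Prkaca* for CL on HFD (-0.073), *Pkig* for C-3BO on HFD (-0.11), *Prkacb* for HFD in controls (0.015), *Prkaca* and *Prkar1a* in C-3BO mice (0.052, 0.17), *Prkaca*, *Prkacb* and *Prkar2a* in saline mice (0.048, 0.071, 0.0095) and *Prkaca* and *Prkar2a* in CL mice (0.10, 0.14). *Prkaca* for CL on chow was also negative with RLE factors (-0.0052), no filter (-0.017), at least 10 counts (-0.0065), only the compared libraries (-0.0060) and DESeq2 (-0.0052), and in the same order *Prkar2b* for HFD in C-3BO mice was at -0.0025, -0.023, -0.028, -0.023 and -0.0025. At least 10 counts turned *Prkacb* for C-3BO on chow (-0.0011) and *Prkar2a* for HFD in CL mice (0.0017), and the muscle covariate turned *Pkig* for HFD in controls (0.079) and *Prkar1b* in C-3BO mice (-0.068). Without HFD C-3BO replicates 4 and 5 *Pkig* for C-3BO on HFD (-0.028), *Prkaca* and *Prkar1a* for HFD in C-3BO mice (0.0074, 0.044) and the *Prkar2b* difference between C-3BO and CL on HFD (0.075) turned. Leaving out 1 replicate gave ranges across 0 for *Prkaca* (-0.047 to 0.066) and *Prkar1b* (-0.26 to 0.024) for CL on chow; *Prkacb* (-0.055 to 0.030), *Prkar2a* (-0.14 to 0.057) and *Pkig* (-0.11 to 0.016) for CL on HFD; *Prkacb* for C-3BO on chow (-0.015 to 0.066) and *Pkig* on HFD (-0.063 to 0.11); and *Prkar1a* (-0.060 to 0.034) and *Prkar2b* (-0.059 to 0.043) for HFD in C-3BO mice. It did so too for *Prkar2b* (-0.027 to 0.19) and *Pkia* (-0.31 to 0.80, negative without HFD saline replicate 3) for HFD in saline mice, *Prkar2a* in CL mice (-0.075 to 0.020) and the *Prkar2b* difference on HFD (-0.18 to 0.045).

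Without division by exon length the regulatory to catalytic ratio was 2.92, 4.67, 3.25 and 5.18 in chow control, chow C-3BO, HFD control and HFD C-3BO mice and 3.53, 4.42, 4.12 and 5.76 in chow saline, chow CL, HFD saline and HFD CL mice, and the *Prkaca* share in the same order was 79.2%, 80.6%, 82.6%, 81.0%, 78.7%, 77.8%, 78.4% and 79.4%. Depth limited *Prkar1b*, with 4 to 59 counts a library, and *Pkib*.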
